A study of Mus musculus with 36 samples.

Results

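The effect of losing both macroH2A histone variants was compared, gene by gene, between cancer-associated fibroblasts (CAFs) sorted from mouse melanomas and immortalized dermal fibroblasts (iDFs) grown in culture without a tumour. Of the 36 RNA sequencing libraries of the series, the 12 that are either sorted CAFs (8 libraries) or iDFs at 0 min of serum (4 libraries) were chosen by their labels. In each cell source the change is double-knockout (dKO) minus wild type (WT), and the question is whether the same genes moved, in which direction, and by how different an amount. The dKO CAFs came from 4 tumours and the WT CAFs from 4 tumours, each genotype with 2 females and 2 males, taken 50 days after induction in mice that were 10 weeks old when 4-hydroxytamoxifen was applied to the skin. All of these mice, dKO and WT, carried the *Braf* CA allele and a CreERT2 driven by the *Tyr* promoter, so that the recombined cells are melanocytes and the CAFs are not. The dKO mice lack *Macroh2a1* and *Macroh2a2* in every tissue (alleles tm1Peh and tm1.1Peh on a 129S6 background), and the crossed animals are predicted to be 75% 129S with the rest from B6 and FVB. CAFs were collected by flow cytometry on CD140a, the product of *Pdgfra*. The iDFs were 2 dKO and 2 WT libraries of male cells derived from dKO and WT skin, starved in 0.5% serum for 24 h. The methods call them experimental replicates and do not state how many independent lines stand behind each genotype, so the iDF p-values measure only the spread between these libraries, which may be technical. CAF libraries were made from far less RNA than iDF libraries with the same strand-specific poly(A) kit, so source, growth condition and input differ together.

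MacroH2A proteins are variants of histone H2A with a large globular macrodomain attached to the histone fold, and they replace ordinary H2A in part of the nucleosomes, mostly in silent or weakly transcribed chromatin. They are encoded by 2 genes, *Macroh2a1* and *Macroh2a2*, which the annotation used here lists under their older symbols *H2afy* and *H2afy2*. Dermal fibroblasts make the collagen-rich matrix of the skin and keep a record of their body position in the expression of Hox and other patterning genes. In a tumour, fibroblasts also secrete chemokines, growth factors and matrix enzymes, and many of the genes involved respond to NF-κB and to serum.

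Library totals in genes ran from 20164075 to 29135123 estimated counts in CAFs and from 22560402 to 30960463 in iDFs at 0 min. Levels are given in CPM, estimated counts scaled to a common library total, after TMM scaling of the 12 libraries together. They are not divided by transcript length, so levels were not compared between genes. *H2afy* measured 55.5, 57.4, 61.2 and 57.0 CPM in dKO CAFs and 69.3, 68.5, 67.7 and 58.8 CPM in WT CAFs, against 54.5 and 50.9 CPM in dKO iDFs and 77.4 and 79.4 CPM in WT iDFs. *H2afy2* measured 12.2, 12.2, 16.0 and 14.4 CPM in dKO CAFs and 24.4, 19.4, 28.1 and 25.3 CPM in WT CAFs, with 26.1 and 26.1 CPM in dKO iDFs and 43.2 and 41.6 CPM in WT iDFs. For *H2afy2* the genotypes lay apart in both sources, and for *H2afy* they lay apart in iDFs and overlapped in CAFs, where the WT female with 58.8 CPM was below 1 dKO library. Which exons the alleles remove is not stated in the labels or methods, and gene totals that include the remaining exons do not check the genotype. *Pdgfra* measured 538 to 676 CPM in dKO CAFs and 372 to 680 CPM in WT CAFs, and it was present in every iDF library. Keratinocyte markers (10 genes) summed to 22.7 to 61.1 CPM in dKO CAFs and 102 to 130 CPM in WT CAFs, and to at most 4.06 CPM in iDFs, where *Krt5* and *Krt14* were at 0. Melanocyte and neural crest markers (12 genes) summed to 383 to 764 CPM in dKO CAFs and 832 to 1089 CPM in WT CAFs, while leukocyte markers (16 genes) summed to 10.8 to 29.8 CPM in dKO CAFs and 15.9 to 31.6 CPM in WT CAFs. Endothelial markers (10 genes) summed to 191 to 455 CPM in dKO CAFs and 281 to 582 CPM in WT CAFs, and to at most 12.2 CPM in iDFs. The part of these other cells in the genes lower in dKO CAFs was not tested. In sorted cells, fewer cells of a type and less RNA per cell cannot be told apart.

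A gene was called when its adjusted p (edgeR quasi-likelihood test, Benjamini-Hochberg) was under 0.05 and its log2 fold change was beyond 0.75 in either direction. In CAFs 15786 genes were tested and 229 were higher and 636 lower in dKO, against 120 and 384 without WT male 2. In iDFs 15047 genes were tested and 592 were higher and 769 lower in dKO. The gene-by-gene comparison rests on the 13864 genes tested in both sources, of which 156 (1.13%) were higher and 397 (2.86%) lower in dKO CAFs, and 507 (3.66%) were higher and 666 (4.8%) lower in dKO iDFs. An unadjusted p under 0.05 was far more common, with 3394 of these genes (24.5%) in CAFs and 6021 (43.4%) in iDFs, and with 4017 (29%) for the difference between the 2 changes.

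Across these 13864 genes the change in CAFs and the change in iDFs had no common trend. Pearson's r was 0.0099 and Spearman's rho −0.00016, and 7100 genes (51.2%) had the same sign in both. These are descriptions across genes, which are not independent replicates. Within a source the changes repeated: r was 0.66 between female and male CAFs, with 68.9% of genes of the same sign, and 0.77 between iDF replicates of number 1 and number 2, with 81.3%. Between sources, each of the 4 pairings of a CAF sex with an iDF replicate number gave an r of −0.031 to 0.0031. Limiting the genes to the 4556 with an average log2 CPM of at least 5 in both sources gave r = −0.022, so the absence of a trend was also seen among well-measured genes. Among the 553 genes called in CAFs, 49.9% had the same sign in iDFs. Among the 1173 genes called in iDFs, 46.5% had the same sign in CAFs.

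**Figure D1:**
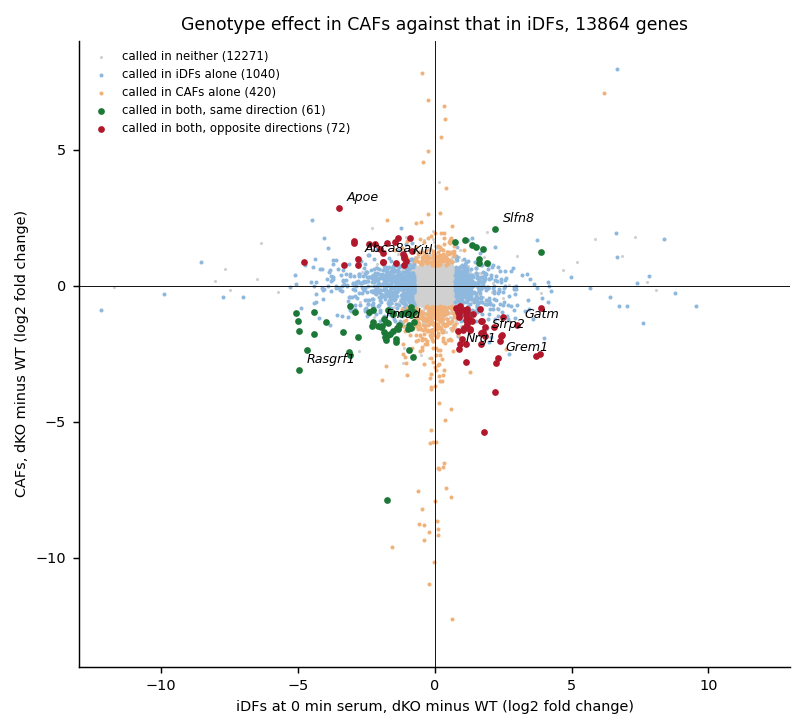
Each point is 1 of 13864 genes, with its log2 fold change (dKO minus WT) in iDFs at 0 min of serum on the horizontal axis and in CAFs on the vertical axis. Colours give the calls: 61 genes called in both sources in the same direction (green), 72 in opposite directions (red), 420 called in CAFs alone (orange), 1040 in iDFs alone (blue) and 12271 in neither (grey). The cloud forms a cross along both axes and has no slope.

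Of the 13864 genes, both tests called 133 (0.959%). They were 24.1% of the genes called in CAFs and 11.3% of those called in iDFs. Of the 133 genes, 61 (45.9%) moved in the same direction and 72 (54.1%) in opposite directions. The same-direction genes were 10 higher in both and 51 lower in both, and the opposite-direction genes were 24 higher in CAFs but lower in iDFs and 48 lower in CAFs but higher in iDFs. Set against each list, 6.41% of the 156 genes higher in CAFs were also higher in iDFs (1.97% of the 507 higher there) and 15.4% were lower in iDFs. Of the 397 genes lower in CAFs, 12.8% were also lower in iDFs (7.66% of the 666 lower there) and 12.1% were higher. Over all 13864 genes, 3.66% were higher and 4.8% lower in dKO iDFs, and 1.13% were higher and 2.86% lower in dKO CAFs. Leaving out WT CAF male 2 brought the genes higher in CAFs and lower in iDFs to 7, those lower in both to 28 and those lower in CAFs and higher in iDFs to 28. Over the single libraries left out in turn, the genes higher in both ranged from 3 without WT CAF male 1 to 21 without dKO CAF female 3. No gene of the 133 passed from same to opposite direction, or back, among the calls of any alternative. Such a passage was counted only where the alternative called the gene in both sources. Genes called in both were named below mainly by size of change, among those with genotypes apart in each source. For these, lack of overlap was a condition of naming and not a result.

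The genes higher in both sources were few. They included *Slfn8*, an interferon-inducible member of the Schlafen family, *Npy1r*, the Y1 receptor of neuropeptide Y, *Pianp*, a membrane protein that binds paired immunoglobulin-like receptors, and *Sytl2*, a synaptotagmin-like protein of vesicle docking. *Slfn8* measured 1.89, 2.03, 9.72 and 2.09 CPM in dKO CAFs and 0.715, 0.548, 0.912 and 1.32 CPM in WT CAFs, with 4.85 and 5.89 CPM in dKO iDFs and 0.945 and 1.39 CPM in WT iDFs. Genotypes did not overlap in either source, and 1 dKO CAF female stood far above the others. Its log2 fold change was 2.07 ± 0.50 (SE) in CAFs and 2.22 ± 0.21 in iDFs (edgeR adjusted p = 0.041 and 8.1e-05), although the CAF call was lost under 10 of 16 alternatives, among them without any 1 of the 4 WT libraries or dKO male 1 or 2 (changes of 1.87 to 2.23). *Pianp* measured 157, 148, 206 and 192 CPM in dKO CAFs and 47.4, 80.9, 41.8 and 94.7 CPM in WT CAFs, with 5.01 and 7 CPM in dKO iDFs and 1.89 and 2.31 CPM in WT iDFs. The change of *Pianp* was 1.42 ± 0.27 in CAFs and 1.53 ± 0.22 in iDFs on the log2 scale, and the difference between them was −0.12 with a 95% interval of −1.27 to 1.04. *Npy1r* measured 12.7 to 24.0 CPM in dKO CAFs and 4.11 to 8.74 CPM in WT CAFs, with 7.62 and 8.38 CPM in dKO iDFs and 4.28 and 3.27 CPM in WT iDFs. *Sytl2* measured 10.4 to 22.1 CPM in dKO CAFs and 3.44 to 5.87 CPM in WT CAFs, with 6.56 and 6.19 CPM in dKO iDFs and 4.47 and 3.09 CPM in WT iDFs. Neither gene overlapped between genotypes in either source. The iDF change of *Sytl2* (0.76 ± 0.17) was lost as a call without dKO replicate 1 or WT replicate 2, where it was 0.72 and 0.52, and the CAF call of *Pianp* was lost without WT male 1, dKO male 1 or dKO female 4 (changes of 1.3 to 1.43). *Lix1* and *Adamtsl3*, named after their values were seen, were the 2 of the 10 genes with a called difference, and both had the larger change in iDFs (3.89 ± 0.42 and 1.90 ± 0.07, against 1.24 ± 0.25 and 0.82 ± 0.20 in CAFs).

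Among the 51 genes lower in both sources were matrix genes and genes of the cell surface. *Rasgrf1*, a Ras exchange factor that is imprinted in the mouse, measured 14, 13.9, 1.72 and 5.89 CPM in dKO CAFs and 116, 121, 28.9 and 41.7 CPM in WT CAFs, with 0.160 and 0.150 CPM in dKO iDFs and 5.10 and 4.80 CPM in WT iDFs. Its dKO libraries lay below every WT library in both sources, and males exceeded females within each CAF genotype. The log2 fold change of *Rasgrf1* was −3.12 ± 0.30 in CAFs and −4.95 ± 0.46 in iDFs (edgeR adjusted p = 0.0014 and 0.00010). *Fmod*, the small proteoglycan fibromodulin, measured 32.2, 20.6, 60.1 and 36.2 CPM in dKO CAFs and 140.5, 73.2, 99.7 and 88.2 CPM in WT CAFs, with 8.95 and 5.92 CPM in dKO iDFs and 35.7 and 26.9 CPM in WT iDFs. *Flt4*, the receptor VEGFR3, measured 7.83 to 12.5 CPM in dKO CAFs and 19.8 to 40.4 CPM in WT CAFs, with 1.76 and 1.65 CPM in dKO iDFs and 6.46 and 6.76 CPM in WT iDFs. *Flt4* is one of 4 genes of the 51, with *Col6a6*, *Ctsh* and *Gm14295*, that kept both calls under all 13 other settings and with each library left out. The part of endothelial cells in the CAF change of *Flt4* was not tested. *Penk*, the precursor of enkephalins, measured 76.8 to 154 CPM in dKO CAFs and 175 to 267 CPM in WT CAFs, with 2.05 and 1.29 CPM in dKO iDFs and 5.01 and 4.69 CPM in WT iDFs. Its CAF call was close to the threshold (edgeR adjusted p = 0.0495) and was lost under 11 of 16 alternatives, 7 of which left out a single library, all but dKO male 2 (changes of −0.83 to −1.14). The CAF call of *Fmod* was lost without any library but WT male 1 and dKO female 3 (changes of −1.24 to −1.63).

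*Fam83g*, a scaffold of casein kinase 1 in Wnt signalling, fell by 1.76 ± 0.15 in CAFs and 1.64 ± 0.25 in iDFs on the log2 scale, and the 95% interval of the difference was −0.82 to 0.58. *H2-Q6*, a class I histocompatibility gene with close copies, fell by 1.34 ± 0.31 in CAFs and 2.24 ± 0.33 in iDFs. Reads of such copies can be split between them by the counting, and the CAF call of *H2-Q6* was lost without any library but WT female 3 (changes of −1.02 to −1.42). *Tcfl5*, a basic helix-loop-helix factor best known from testis, changed far more in iDFs. It measured 1.60, 1.66, 1.45 and 1.09 CPM in dKO CAFs and 2.77, 3.45, 3.28 and 2.31 CPM in WT CAFs, but 0.267 and 0.0901 CPM in dKO iDFs against 6.17 and 6.47 CPM in WT iDFs. The difference of the *Tcfl5* changes was 4.05 ± 0.43 (edgeR adjusted p = 0.000217), while its CAF call was lost without WT male 2, WT female 3, dKO male 1 or dKO female 4 (changes of −0.90 to −1.02). *Gm14288*, a zinc finger gene of a cluster of near-identical copies, fell by 1.45 ± 0.20 in CAFs and 0.93 ± 0.13 in iDFs, but with an offset for transcript length its CAF change was 0.10. *Mest*, an imprinted gene, and the matrix genes *Col6a6* and *C1qtnf3* were also lower in both and are named after their values were seen. With a single library left out, *C1qtnf3* kept both calls in 5 of 12 fits. *Mest* changed by −1.72 ± 0.25 in CAFs and −1.85 ± 0.09 in iDFs, and *Col6a6* by −2.56 ± 0.20 and −3.11 ± 0.32, with CAFs given before iDFs. Of the 61 same-direction genes, 10 (16.4%) had a called difference in size.

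**Figure D2:**
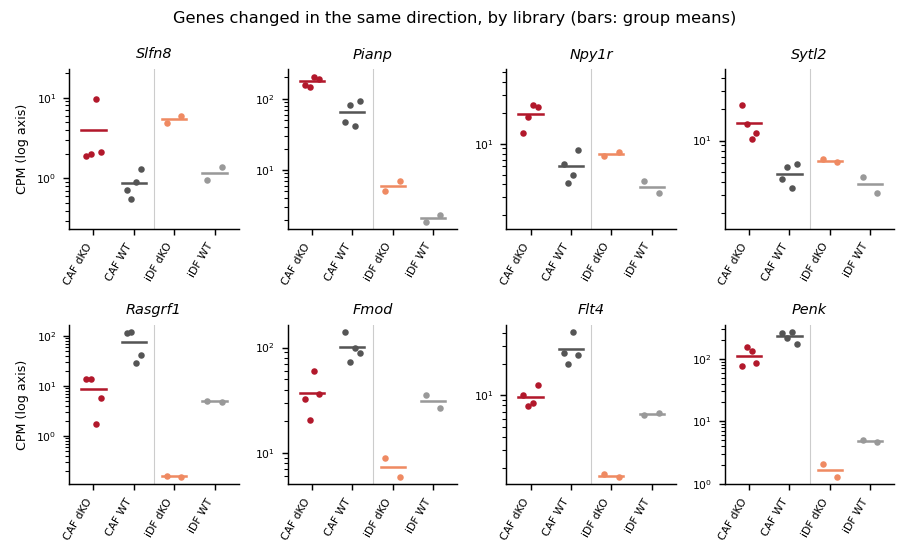
CPM of 8 genes called in the same direction in both sources (log axis), 1 point per library, for dKO CAFs, WT CAFs, dKO iDFs and WT iDFs from left to right, with bars at group means. In all 8 panels the dKO points lie on the same side of the WT points in CAFs and in iDFs, without overlap, as the choice of these genes required.

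The difference of the changes was tested in 1 fit of the 12 libraries as the change in CAFs minus the change in iDFs. It was called for 575 genes (4.15%) in which the CAF change lay above the iDF change and for 654 genes (4.72%) in which it lay below. Without 1 iDF library at a time, the counts were 345 to 373 above and 363 to 424 below. Of the 72 opposite-direction genes, 71 had a called difference, which called changes of opposite sign on the same libraries make nearly certain. A gene called in 1 source alone was not always shown to differ: the difference was called for 252 of the 420 genes called in CAFs alone (60%) and for 608 of the 1040 called in iDFs alone (58.5%).

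*Apoe*, which encodes the lipid carrier apolipoprotein E, had the largest difference of the 24 genes that were higher in CAFs and lower in iDFs. It measured 770, 514, 1140 and 709 CPM in dKO CAFs and 99.3, 108, 129.5 and 97.3 CPM in WT CAFs, but 2.08 and 2.67 CPM in dKO iDFs and 25.7 and 28.2 CPM in WT iDFs. Neither source had an overlap, with every dKO CAF above every WT CAF and every dKO iDF below every WT iDF. The log2 fold change of *Apoe* was 2.85 ± 0.22 in CAFs and −3.50 ± 0.15 in iDFs, and the difference was 6.34 ± 0.38 (95% interval 5.49 to 7.19; edgeR adjusted p = 9.8e-06). *Abca8a*, a transporter of the ATP-binding cassette family, measured 1435, 887, 1306 and 1185 CPM in dKO CAFs and 598, 559, 518 and 803 CPM in WT CAFs, against 1.47 and 0.841 CPM in dKO iDFs and 8 and 8.57 CPM in WT iDFs. *Cd59a*, an inhibitor of the terminal complement complex with a close paralogue, measured 23.7 to 46.6 CPM in dKO CAFs and 9.66 to 11.7 CPM in WT CAFs, and 0.986 and 1.29 CPM in dKO iDFs and 3.46 and 2.77 CPM in WT iDFs. *Apoe* and *Cd59a* were the 2 of these 24 genes that kept both calls under every alternative run. *Scn2a*, a voltage-gated sodium channel, changed by 1.18 ± 0.16 in CAFs and −1.90 ± 0.19 in iDFs. *Slc27a6*, a fatty acid transport protein, changed by 1.03 ± 0.18 in CAFs and −1.12 ± 0.26 in iDFs. *Klf15*, a transcription factor that glucocorticoids induce, changed by 1.52 ± 0.38 in CAFs and −2.16 ± 0.33 in iDFs, but 1 dKO CAF male with 12.9 CPM stood above the other dKO CAFs (4.02 to 4.38 CPM) and the CAF call was lost under 10 of 16 alternatives, among them without any 1 of the 4 WT libraries or a dKO female (changes of 1.36 to 1.66). Without WT male 1 or WT male 2, the CAF calls of *Abca8a* (0.98 and 0.94) and *Slc27a6* (1.00 and 0.91) were lost too, and without dKO replicate 2 or WT replicate 1 the iDF call of *Slc27a6* (−0.92 and −0.97).

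*Kitl* encodes stem cell factor, the ligand of the receptor KIT on melanocytes and mast cells. It measured 90.5, 126, 111 and 120.1 CPM in dKO CAFs and 53, 62.2, 47.6 and 77.5 CPM in WT CAFs, but 23.8 and 29.0 CPM in dKO iDFs and 53 and 57.6 CPM in WT iDFs. The groups did not overlap in either source, and the dKO was high in CAFs and low in iDFs. *Kitl* changed by 0.91 ± 0.17 in CAFs and −1.06 ± 0.09 in iDFs (edgeR adjusted p = 0.017 and 5.9e-05), and the difference of 1.96 ± 0.27 stayed called under all 25 alternatives. The CAF call itself was lost in males alone and without WT male 1, WT male 2 or dKO female 4, where the change was 0.86, 0.95 and 0.89 in the last 3 cases.

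The reverse pattern, lower in CAFs and higher in iDFs, took in secreted regulators of BMP, activin and Wnt signalling. *Grem1*, the BMP antagonist gremlin 1, measured 3.10, 4.02, 3.30 and 3.22 CPM in dKO CAFs and 27.3, 29.2, 16.8 and 17.4 CPM in WT CAFs, but 15.9 and 15.6 CPM in dKO iDFs and 3.21 and 3.13 CPM in WT iDFs. The dKO CAFs and the WT iDFs were both near 3 CPM, and the groups were apart in each source. *Grem1* changed by −2.67 ± 0.15 in CAFs and 2.32 ± 0.14 in iDFs, with a difference of −5.0 ± 0.22 (edgeR adjusted p = 5.7e-07). *Sfrp2*, a secreted Frizzled-related modulator of Wnt signals, measured 12.7, 44.1, 37.1 and 16.3 CPM in dKO CAFs and 65.2, 106, 141 and 92.7 CPM in WT CAFs, with 32.9 and 32.8 CPM in dKO iDFs and 9.13 and 9.35 CPM in WT iDFs. Its CAF change of −1.84 ± 0.44 was lost as a call under 10 of 16 alternatives, among them without any library but dKO male 2 (changes of −1.60 to −2.04), and its difference of −3.69 ± 0.69 was kept under all 25. *Fzd6*, a Frizzled receptor, measured 2.92 to 3.96 CPM in dKO CAFs and 8.98 to 13.1 CPM in WT CAFs, with 25 and 27.9 CPM in dKO iDFs and 10.5 and 11.4 CPM in WT iDFs. *Inhbb*, the beta B subunit of activin, measured 11.3 to 39.7 CPM in dKO CAFs and 39.9 to 66.0 CPM in WT CAFs, with 13.3 and 11.5 CPM in dKO iDFs and 2.46 and 1.92 CPM in WT iDFs. *Nrg1*, a ligand of ERBB receptors, measured 1.85 to 5.72 CPM in dKO CAFs and 7.71 to 30.4 CPM in WT CAFs, with 74.3 and 65.8 CPM in dKO iDFs and 42.1 and 34.6 CPM in WT iDFs. In these 3 genes the genotypes lay apart in both sources, in opposite order. The iDF call of *Nrg1* was lost without WT replicate 2, where the change was 0.75. *C1ql3*, *Fzd6* and *Grem1* kept both calls under every alternative run, of the 48 genes with this pattern.

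Other genes were also lower in dKO CAFs and higher in dKO iDFs. *Tfap2a*, the transcription factor AP-2 alpha of neural crest and epidermis, measured 18.7 and 19.2 CPM in dKO CAF males and 3.71 and 6.24 CPM in dKO CAF females, against 37.0 and 40.6 CPM in WT males and 22.6 and 20.5 CPM in WT females. In iDFs it measured 5.73 and 5.05 CPM in dKO and 1.42 and 1.60 CPM in WT. Keratinocyte and melanocyte markers were also lower in dKO CAFs, and their part in this gene was not tested. *Slc6a17*, a transporter of amino acids in synaptic vesicles, changed by −2.04 ± 0.17 in CAFs and 2.39 ± 0.25 in iDFs. *Gatm*, which makes the precursor of creatine, changed by −1.46 ± 0.31 in CAFs and 3.02 ± 0.29 in iDFs. The differences of these 3 genes ran from −3.37 (*Tfap2a*) to −4.47 (*Gatm*) and all were called by edgeR (adjusted p of 0.00191 or less). The CAF call of *Gatm* was lost without WT male 2, WT female 3, WT female 4, dKO male 1 or dKO female 4 (−1.36 to −1.49).

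**Figure D3:**
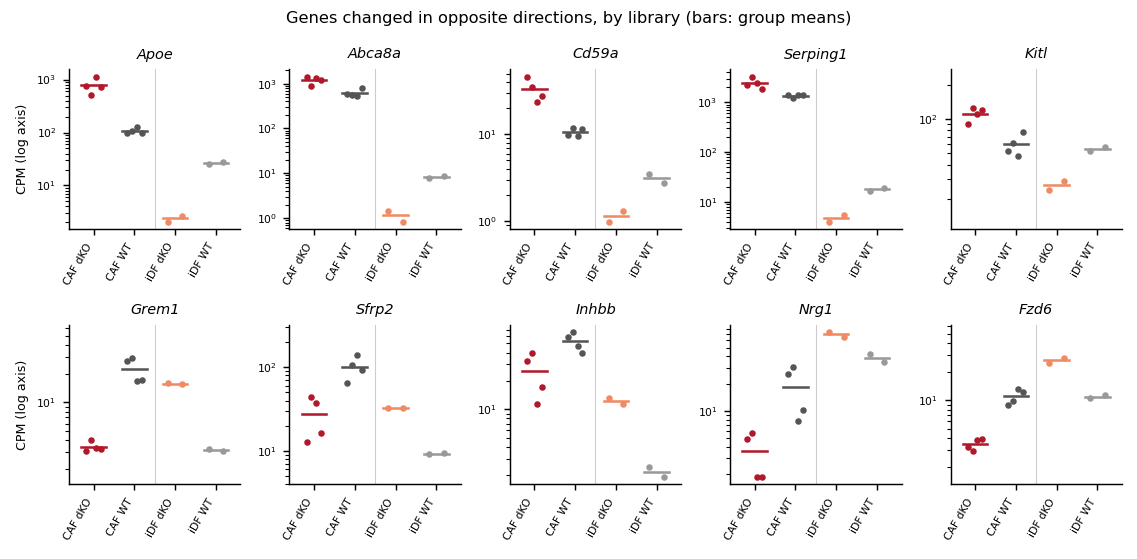
CPM of 10 genes called in opposite directions in CAFs and iDFs (log axis), 1 point per library, for dKO CAFs, WT CAFs, dKO iDFs and WT iDFs from left to right, with bars at group means. In the upper row the dKO CAFs lie above the WT CAFs and the dKO iDFs below the WT iDFs; in the lower row the order is the reverse.

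Other genes were called in 1 source alone. In CAFs, *Xpnpep2*, a membrane aminopeptidase, measured 37.2 to 54.6 CPM in dKO and 13.2 to 14 CPM in WT, while iDFs had 12.6 and 15 CPM in dKO and 14 and 16.2 CPM in WT. *Pop4*, a subunit of ribonuclease P, measured 19.3 to 23.4 CPM in dKO CAFs and 8 to 10.7 CPM in WT CAFs, against 20.6 and 19.6 CPM in dKO iDFs and 22.3 and 19.9 CPM in WT iDFs. *Zcwpw1*, a histone reader best known from meiosis, and *Rpl34*, a ribosomal protein gene with many processed copies, were higher in the same way, with differences of 1.22 ± 0.22 and 1.71 ± 0.21. *Dynlt1b*, a dynein light chain gene with close copies, measured 6.78, 7.99, 9.45 and 8.38 CPM in dKO CAFs and 61.8, 60.9, 72.7 and 70.2 CPM in WT CAFs, but 80.3 and 76.0 CPM in dKO iDFs and 77.9 and 78.9 CPM in WT iDFs. *Gm14305*, a zinc finger gene of chromosome 2, was at 0 CPM in 3 dKO CAFs and at 0.194 CPM in the remaining one, against 10.2 to 13.3 CPM in WT CAFs, while all 4 iDF libraries had 12.8 to 13.1 CPM. *2210418O10Rik*, of the same kind, measured 0.145 to 0.814 CPM in dKO CAFs and 4 to 7.22 CPM in WT CAFs, against 9.65 and 10.5 CPM in dKO iDFs and 8.6 and 9.32 CPM in WT iDFs. *Gm6710*, another zinc finger gene of chromosome 2, measured 0.0452 to 1.43 CPM in dKO CAFs and 5.11 to 6.88 CPM in WT CAFs, against 6.69 and 7.33 CPM in dKO iDFs and 7.21 and 7.68 CPM in WT iDFs. The CAF call of *Gm6710* was lost under 7 of 16 alternatives, among them without any 1 of the 4 WT libraries or either dKO male (changes of −2.67 to −3.00), and its called difference under 5 of 25, among them without any 1 iDF library (−2.65 to −2.78). *Hmga1b*, a copy of the *Hmga1* gene named after its values were seen, was at 0 in 3 dKO CAFs, at 0.122 CPM in the remaining one and at 104 to 275 CPM in WT CAFs, yet at 103 and 105 CPM in dKO iDFs and 64.1 and 69.7 CPM in WT iDFs. The iDF genotypes of *Hmga1b* lay apart as well, with a change of 0.65 ± 0.11 (edgeR adjusted p = 0.00471) that was under the fold threshold. Counts of such copies depend on how reads were divided among them and on the strain of the sequence, and the part of strain in these genes was not tested. Of a list of 47 duplicated and strain-variable genes, 33 were tested in both. Of these, 2 were higher and 9 lower in dKO CAFs (1.13% and 2.86% of all genes), against 1 higher and 5 lower in dKO iDFs (3.66% and 4.8%).

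In iDFs alone, the genes with large differences included patterning factors and secreted proteins. *Foxc2*, a forkhead factor of mesenchyme, measured 3.34 to 20.1 CPM in dKO CAFs and 7.84 to 15.5 CPM in WT CAFs, with 8.79 and 8.29 CPM in dKO iDFs and 0.630 and 0.747 CPM in WT iDFs. Its CAF genotypes overlapped and its iDF genotypes were far apart. *Lmcd1*, a LIM domain cofactor, and the protocadherin *Pcdhga8* rose in iDFs by 3.72 ± 0.40 and 4.13 ± 0.23 on the log2 scale. In the lower direction, *Hgf*, hepatocyte growth factor, measured 32.0 to 51.4 CPM in dKO CAFs and 31.6 to 41.9 CPM in WT CAFs, but 0.933 and 0.841 CPM in dKO iDFs against 14.4 and 10.0 CPM in WT iDFs. *Clec3b* (tetranectin), *Tshz2* and *Rtl3*, a gene derived from a retrotransposon, had the same shape, with differences of 4.04 ± 0.50, 3.95 ± 0.20 and 3.91 ± 0.41. *Il1rn*, the interleukin 1 receptor antagonist, was at 0 counts in both WT iDF libraries and at 3.12 and 2.94 CPM in dKO iDFs, at least 60.5-fold higher against 3 counts over the WT pair. In CAFs it measured 0.542 to 3.12 CPM in dKO and 1.2 to 2.85 CPM in WT, and the change was not called.

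The study names *Ccl2*, *Cxcl1* and *Il6*, which attract or activate myeloid cells, among the genes of interest in dKO CAFs. *Ccl2* measured 586, 552, 373 and 476 CPM in dKO CAFs and 288, 360, 162 and 254 CPM in WT CAFs, with 28.9 and 28.8 CPM in dKO iDFs and 22.5 and 24.5 CPM in WT iDFs. *Cxcl1* measured 1480, 1862, 1507 and 1402 CPM in dKO CAFs and 856, 1139, 485 and 853 CPM in WT CAFs, with 1.04 and 1.05 CPM in dKO iDFs and 0.882 and 0.676 CPM in WT iDFs. Neither gene overlapped between genotypes in either source, and the sources differed far more in level than the genotypes. *Ccl2* changed by 0.94 ± 0.16 in CAFs (edgeR adjusted p = 0.012) and 0.31 ± 0.34 in iDFs (edgeR adjusted p = 0.552), and the difference was 0.62 with a 95% interval of 0.07 to 1.18 and an edgeR adjusted p of 0.125. *Cxcl1* changed by 0.95 ± 0.20 in CAFs (edgeR adjusted p = 0.026) and 0.42 ± 0.18 in iDFs (adjusted p = 0.217), and the difference was 0.52 with an interval of −0.58 to 1.62. For both genes, then, a change in CAFs was called and a different change in iDFs was not shown. *Il6* measured 468, 595, 442 and 381 CPM in dKO CAFs and 249, 344, 135 and 242 CPM in WT CAFs, but the iDFs held 1 count in the dKO pair and 2 counts in the WT pair. A change of *Il6* in starved iDFs was not detectable at this depth. It entered the iDF test through the libraries at 30 min of serum, as 1 of 197 genes (1.42%) that would have failed the filter at 0 min alone. The CAF calls of *Il6* (1.00 ± 0.21) and *Cxcl1* were each lost under 7 of 16 alternatives, among them without WT male 1, dKO male 2, dKO female 3 or dKO female 4, where the changes were 0.93 to 1.02 for *Il6* and 0.89 to 0.94 for *Cxcl1*. The CAF call of *Ccl2* was kept with each library left out in turn and lost without sex in the model (0.92, edgeR adjusted p = 0.0741) and in males alone (0.83, adjusted p = 0.065).

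*Ccl11*, the eosinophil attractant eotaxin, was higher in dKO CAFs (298 to 522 CPM) than in WT CAFs (135 to 195 CPM), and was not tested in iDFs, where it had 6 counts in the dKO pair and 9 in the WT pair. *Ccl9* measured 4.79 to 69.4 CPM in dKO CAFs and 6.94 to 13.9 CPM in WT CAFs and had 7 counts in the dKO iDF pair and 8 in the WT pair. Without dKO female 3 its CAF change was 2.06 and called. *Ptgs2*, the inducible cyclooxygenase, measured 177 to 692 CPM in dKO CAFs and 114 to 375 CPM in WT CAFs, with 6.85 and 5.26 CPM in dKO iDFs and 9.98 and 7.96 CPM in WT iDFs. With all libraries edgeR called neither *Ccl9* nor *Ptgs2* in either source, whereas DESeq2 called both in CAFs (changes of 1.64 and 0.76, adjusted p = 0.0308 and 0.0284). In males alone edgeR called *Ccl9* too (2.20). The *Ptgs2* difference was called by DESeq2 (1.34), by the combination of the separate fits (1.32) and with an offset for transcript length (2.05), which also called *Ptgs2* lower in dKO iDFs (adjusted p = 0.0484). The immediate-early genes *Fos* and *Jun* were high in CAFs and far lower in starved iDFs. *Fos* measured 3947 to 5217 CPM in dKO CAFs and 3608 to 4318 CPM in WT CAFs, with 7.78 and 4.02 CPM in dKO iDFs and 6.90 and 4.48 CPM in WT iDFs. The genotypes overlapped in both sources for *Fos* and for *Jun*, and neither gene was called.

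The promoters of *Cxcl1* and *Il6* are shown because both genes are textbook targets of NF-κB and both were called in CAFs. GGG, then any 2 bases, then TTTCC, a form of the NF-κB site, was searched on both strands of the 250 bases before each start in the RefSeq promoters of GRCm38.p6, where 1.41% of 32851 promoters held a match. Of the 9 genes named by the study, 7 had a promoter listed and 3 of these held a match (*Cxcl1*, *Il6* and *Ccl9*). By direction, a match was held by 3.96% of 101 genes higher and 4.07% of 246 genes lower in dKO CAFs. In iDFs these shares were 1.74% of 345 genes higher and 1.77% of 453 genes lower. The share was 1.77% of all 10081 genes tested in both with a promoter listed. Given 5′ to 3′ are the last 100 bases before the start, both on the plus strand, with matches in capitals: *Cxcl1* at chr5:90891145-90891244 and *Il6* at chr5:30013014-30013113.
Cxcl1: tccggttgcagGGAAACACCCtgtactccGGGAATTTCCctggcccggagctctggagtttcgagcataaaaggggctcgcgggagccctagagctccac
Il6: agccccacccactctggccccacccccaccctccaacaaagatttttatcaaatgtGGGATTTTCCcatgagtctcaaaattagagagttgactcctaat
The *Cxcl1* promoter held 2 matches, 89 and 71 bases before the start, and the *Il6* promoter 1, 44 bases before it. A match is a description of these letters and not of binding.

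**Figure D4:**
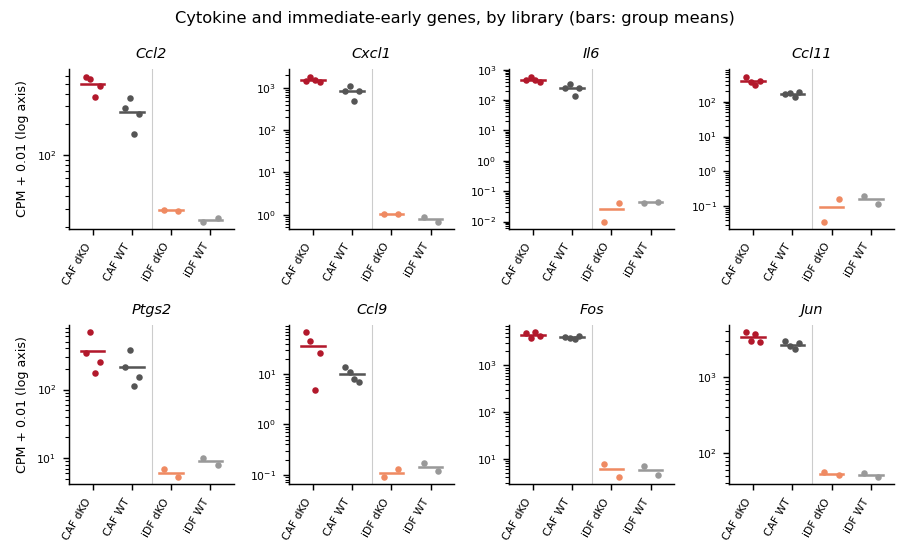
CPM + 0.01 of 8 cytokine, cyclooxygenase and immediate-early genes (log axis), 1 point per library, for dKO CAFs, WT CAFs, dKO iDFs and WT iDFs from left to right, with bars at group means. *Ccl2*, *Cxcl1*, *Il6* and *Ccl11* have every dKO CAF above every WT CAF, and all 8 genes are far lower in starved iDFs than in CAFs.

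The NF-κB list (16 subunits, inhibitors and feedback genes, 15 tested in both) had 1 member called in CAFs (*Tnfaip3*) and 1 in iDFs (*Tnfaip2*), both higher in dKO, and its median change was 0.34 in CAFs and −0.02 in iDFs, against medians of 0.01 and −0.00 over all genes. In CAFs 10 of the 15 had an unadjusted p under 0.05, as did 24.5% of all genes, and DESeq2 called 0. *Nfkbie* and *Nfkbib*, inhibitors that hold NF-κB in the cytoplasm, had called differences of 1.43 ± 0.22 and 0.94 ± 0.25 by edgeR although neither was called in a source by itself, and that of *Nfkbib* was lost without WT CAF male 2, dKO CAF female 4 or any 1 iDF library (0.87 to 1.01). *Tnfaip2* had a called difference in the other sense. It measured 128 to 236 CPM in dKO CAFs and 152 to 288 CPM in WT CAFs, with 59.3 and 58.8 CPM in dKO iDFs and 34.8 and 29.2 CPM in WT iDFs. Of 13 chemokine ligands tested in both, 2 were higher in dKO CAFs (*Ccl2* and *Cxcl1*, against 1.13% of all genes) and 3 were lower in dKO iDFs (4.8% of all genes). Of these 3, *Cxcl16* (log2 fold change −1.73) and *Cx3cl1* (−0.89) also had called differences, that of *Cxcl16* lost without dKO iDF replicate 2 (1.86) and that of *Cx3cl1* lost without any of 6 libraries (0.69 to 0.75), as was its iDF call without any 1 of the 4 iDF libraries (−0.86 to −0.92). Of 26 immediate-early genes, 24 had a positive change in CAFs with 1 called, and 15 had a positive change in iDFs with 1 called. Over all genes, 51.4% had a positive change in CAFs and 49.5% in iDFs. Of the 26, 13 in CAFs and 7 in iDFs had an unadjusted p under 0.05, against 24.5% and 43.4% of all genes.

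Positional genes were called mostly in iDFs. Of 39 Hox genes, 24 were tested in both. In iDFs 8 were higher and 1 was lower in dKO (3.66% and 4.8% of all genes). In CAFs 0 were called by edgeR, near the share of all genes there (1.13% higher and 2.86% lower). In CAFs 3 had an unadjusted p under 0.05 (24.5% of all genes did) and 1 was called by DESeq2. The difference was called for 8 of the 24, all below 0 (4.72% of all genes). *Hoxa7* measured 2.76 to 5.77 CPM in dKO CAFs and 3.22 to 5.6 CPM in WT CAFs, but 15.9 and 16.7 CPM in dKO iDFs and 2.49 and 1.92 CPM in WT iDFs. *Hoxc8* measured 14.4 to 23.7 CPM in dKO CAFs and 16.0 to 30.1 CPM in WT CAFs, with 69.4 and 77.6 CPM in dKO iDFs and 33.5 and 34.6 CPM in WT iDFs. *Tbx5*, a limb and heart factor of the list of other positional factors, measured 0.436 to 0.771 CPM in dKO CAFs and 0.290 to 0.599 CPM in WT CAFs, with 22.2 and 17.6 CPM in dKO iDFs and 0.567 and 0.711 CPM in WT iDFs. In each of these genes the CAF genotypes overlapped and the iDF genotypes did not. That list of 53 genes (32 tested in both) had 9 higher and 3 lower in dKO iDFs (3.66% and 4.8% of all genes). In dKO CAFs 0 were higher and 2 lower (1.13% and 2.86% of all genes). *Alx4* was lower in both sources, with changes of −1.33 ± 0.29 in CAFs and −3.97 ± 0.43 in iDFs, and kept both calls in 5 of 12 fits with a single library left out. Differences between iDF lines other than genotype were not tested.

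Clustered protocadherins, adhesion proteins of which a cell expresses a subset, were also called in iDFs. Of 41 tested in both, 7 were higher and 10 lower in dKO iDFs (3.66% and 4.8% of all genes). In CAFs 0 were called by edgeR or DESeq2, where edgeR called 1.13% of all genes higher and 2.86% lower. There 8 had an unadjusted p under 0.05 (24.5% of all genes). The difference was called for all 17 of the iDF genes. *Pcdhga12* measured 23.6 to 30.2 CPM in dKO CAFs and 19 to 28.1 CPM in WT CAFs, but 6.24 and 3.63 CPM in dKO iDFs and 38.3 and 38.8 CPM in WT iDFs. *Pcdhb22* measured 14.4 to 19 CPM in dKO CAFs and 13 to 17.2 CPM in WT CAFs, but 63.5 and 72.6 CPM in dKO iDFs and 21.4 and 23.4 CPM in WT iDFs.

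Imprinted genes are expressed from 1 parental allele. A list of 30 imprinted genes had 26 tested in both. Of these, 13 were lower and 0 higher in dKO iDFs (4.8% and 3.66% of all genes), and 1 (*Mest*) was lower in dKO CAFs (2.86%). The median change of the list was −0.55 in iDFs and −0.25 in CAFs. *Rasgrf1*, also imprinted and lower in both sources, was not on this list. *Snrpn* measured 3.53 to 5.14 CPM in dKO CAFs and 4.75 to 7.18 CPM in WT CAFs, with 0.986 and 0.721 CPM in dKO iDFs and 6.96 and 7.93 CPM in WT iDFs. *Cdkn1c*, an inhibitor of the cell cycle, measured 14 to 28.5 CPM in dKO CAFs and 16.5 to 35.4 CPM in WT CAFs, with 33.1 and 37.4 CPM in dKO iDFs and 101 and 119 CPM in WT iDFs. The difference was called above 0 for 8 imprinted genes and below 0 for none by edgeR, with 12 at an unadjusted p under 0.05 (29% of all genes) and 9 called by DESeq2 in either direction.

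Matrix genes of fibroblasts followed. Of 29 collagens tested in both, 12 were lower and 5 higher in dKO iDFs (4.8% and 3.66% of all genes). In dKO CAFs 2 were lower and 0 higher (2.86% and 1.13% of all genes). The difference was called for 9 above and 2 below 0 (4.15% and 4.72% of all genes). *Col15a1*, of the basement membrane zone, measured 2223 to 3389 CPM in dKO CAFs and 2021 to 2822 CPM in WT CAFs, but 3.54 and 2.76 CPM in dKO iDFs against 45.7 and 38.2 CPM in WT iDFs. *Col4a1* measured 8052 to 12183 CPM in dKO CAFs and 5673 to 7529 CPM in WT CAFs, with 176 and 195 CPM in dKO iDFs and 576 and 565 CPM in WT iDFs. *Lum* and *Dcn*, the small proteoglycans lumican and decorin, fell by 1.86 ± 0.17 and 1.73 ± 0.33 in iDFs. Their CAF changes were 0.71 and 0.60, with adjusted p under the threshold but changes too small for a call, and their differences of 2.57 ± 0.30 and 2.33 ± 0.31 were called by edgeR, although the iDF call of *Dcn* was lost without WT replicate 1 or 2 (−1.83 and −1.62). *Timp3*, an inhibitor of matrix proteases, fell by 1.05 ± 0.06 in iDFs and changed by 0.69 ± 0.21 in CAFs (not called). *Mmp13*, a collagenase, was lower in dKO CAFs (14.9 to 92.5 CPM, against 107 to 188 CPM in WT CAFs) and higher in dKO iDFs (1.25 and 1.68 CPM, against 0.315 and 0.213 CPM in WT iDFs). With a single library left out, *Mmp13* kept both calls in 5 of 12 fits. Of the fibroblast markers, 4 of 10 (*Dcn*, *Lum*, *Pdpn* and *Fap*) were lower in dKO iDFs and 0 were called in CAFs by edgeR or DESeq2, with 4 at an unadjusted p under 0.05 (24.5% of all genes).

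**Figure D5:**
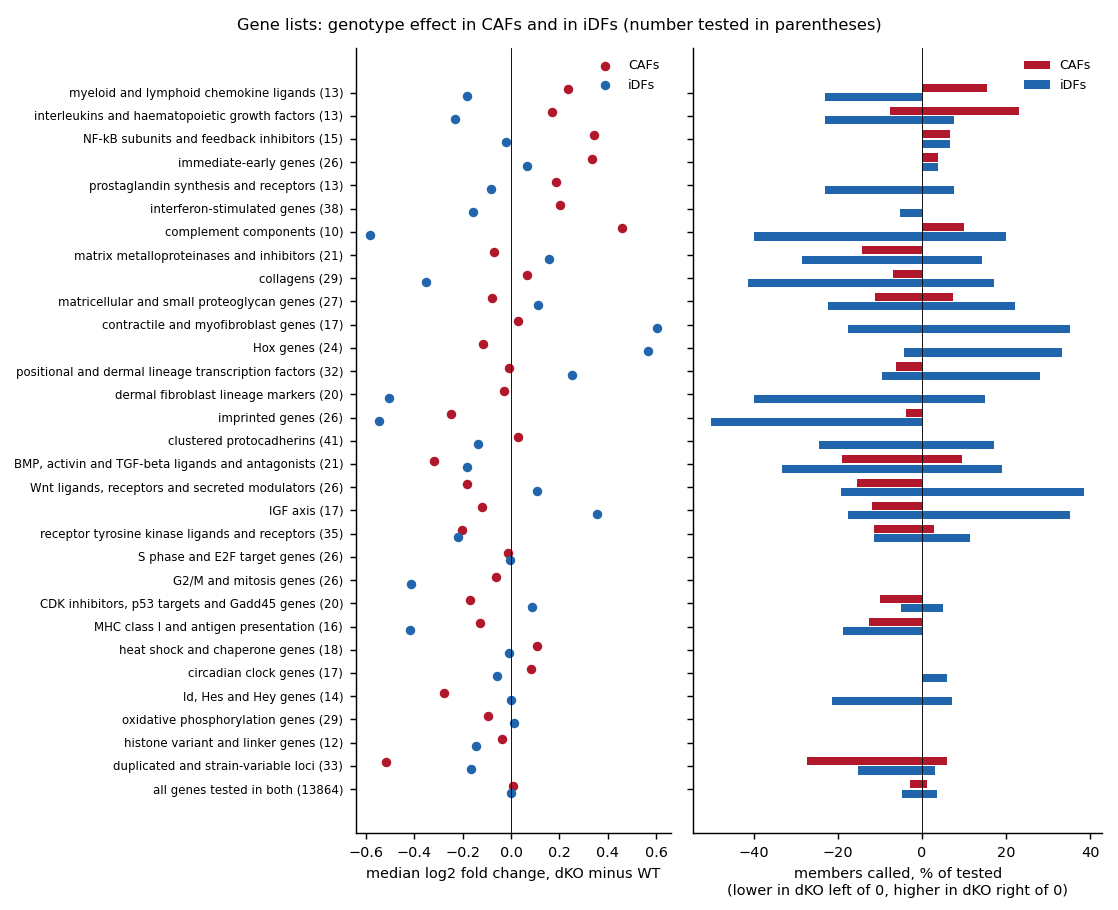
For 30 gene lists and for all 13864 genes, the left panel gives the median log2 fold change (dKO minus WT) in CAFs (red) and iDFs (blue), and the right panel the percentage of tested members called lower (left of 0) and higher (right of 0) in dKO. Hox genes (8 of 24 higher), imprinted genes (13 of 26 lower) and clustered protocadherins (7 higher and 10 lower of 41) have long iDF bars beside 0 or 1 gene called in CAFs.

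Complement genes had a median change of 0.46 in CAFs and −0.58 in iDFs over 10 members. *Serping1*, the C1 inhibitor, measured 1878 to 3302 CPM in dKO CAFs and 1234 to 1395 CPM in WT CAFs, but 4.02 and 5.47 CPM in dKO iDFs and 16.5 and 19.3 CPM in WT iDFs. It was called in opposite directions, with a difference of 2.76 ± 0.30, and its CAF call was lost without WT male 1, WT male 2 or dKO male 2 (0.85, 0.78 and 0.69). *C4b* changed in iDFs alone (−2.89 ± 0.32), and *Masp1*, a protease of the lectin pathway, was higher in dKO iDFs (1.35 ± 0.11) with a CAF change of −1.26 ± 0.35 that missed the threshold (edgeR adjusted p = 0.0668). The called difference of *Masp1* (−2.62 ± 0.56) was lost without either WT iDF replicate or dKO iDF replicate 2 (−2.53 to −2.67).

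Secreted signals held several opposite calls. Of 21 BMP, activin and TGF-beta genes tested in both, 3 were called in opposite directions (*Grem1*, *Inhbb* and *Gdf6*) and 1 in the same direction (*Bmp6*, lower in both). Of all 13864 genes, 72 were called in opposite directions and 61 in the same direction. *Bmp4* measured 3.98 to 5.48 CPM in dKO CAFs and 6.80 to 12.9 CPM in WT CAFs, but 33.7 and 29.9 CPM in dKO iDFs and 0.315 and 0.284 CPM in WT iDFs. The genotypes of *Bmp4* lay apart in both sources, the CAF change (−0.75) was not called, and the difference was −7.47 ± 0.45. Of 26 Wnt genes, 4 were lower and 0 higher in dKO CAFs (2.86% and 1.13% of all genes). In dKO iDFs 5 were lower and 10 higher (4.8% and 3.66% of all genes), and 8 differences were called below 0 and 2 above. *Wnt5a*, a non-canonical ligand, measured 42.0 to 62.8 CPM in dKO CAFs and 63.0 to 84.3 CPM in WT CAFs, with 209 and 211 CPM in dKO iDFs and 52.3 and 54.6 CPM in WT iDFs. *Rspo2*, which amplifies Wnt signals, was higher in dKO iDFs (50.3 and 59.1 CPM, against 13.5 and 14.2 CPM in WT iDFs) with 0.194 to 0.678 CPM in dKO CAFs and 0.759 to 4.69 CPM in WT CAFs. Of 35 receptor tyrosine kinase ligands and receptors, 4 were called in opposite directions (72 of all 13864 genes): *Kitl*, *Nrg1*, *Pdgfc* and *Gdnf*. With a single library left out, *Pdgfc* kept both calls in 7 and *Gdnf* in 5 of 12 fits.

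In the insulin-like growth factor axis, *Igfbp3* was lower in both sources. It measured 344 to 1097 CPM in dKO CAFs and 1165 to 3773 CPM in WT CAFs, with 0.187 and 0.360 CPM in dKO iDFs and 2.65 and 3.02 CPM in WT iDFs. The changes were −1.70 ± 0.12 in CAFs and −3.36 ± 0.34 in iDFs, and the difference was called. *Igfbp5* and *Igfbp4*, binding proteins of the same family, rose in iDFs by 2.15 ± 0.27 and 1.45 ± 0.06, and their CAF changes of −0.28 and −0.59 were not called. Of 17 contractile and myofibroblast genes, 6 were higher and 3 lower in dKO iDFs (3.66% and 4.8% of all genes). In CAFs 0 were called by edgeR (1.13% of all genes were higher and 2.86% lower), with 3 at an unadjusted p under 0.05 (24.5% of all genes) and 1 called by DESeq2.

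Several groups were called in neither source. For 26 S phase and E2F target genes, 26 G2/M and mitosis genes, 18 heat shock and chaperone genes, 29 oxidative phosphorylation genes and 12 histone variant and linker genes, edgeR and DESeq2 called 0 genes in CAFs, in iDFs and for the difference. At an unadjusted p under 0.05 there were 1, 1, 8, 2 and 2 genes in CAFs, 14, 22, 13, 11 and 4 in iDFs and 1, 2, 4, 4 and 3 for the difference, in the order of these lists. Over all genes the shares were 24.5% in CAFs, 43.4% in iDFs and 29% for the difference. *H2afy2* is not among the 12 histone variant and linker genes. It was called lower in dKO CAFs by edgeR and was not called in iDFs. There its changes were −0.66 to −0.71 over 12 alternatives, and only the setting with no fold threshold called it. The difference of the changes of *H2afy2* (−0.06 to −0.19) was called under none of 25 alternatives. The CAF call of *H2afy2* was lost under 2 of 16 alternatives, with changes of −0.74 to −0.87 over all 16. The G2/M list had a median change of −0.41 in iDFs, where all 26 members were below 0, and of −0.06 in CAFs. *Cdkn1a*, the inhibitor p21, was lower in dKO CAFs (89.5 to 256 CPM, against 215 to 443 CPM in WT CAFs) and not called in iDFs, and its difference of −1.32 ± 0.32 was called. Its CAF call was lost without any library but dKO male 2 and dKO female 4 (−0.64 to −0.80), and its difference without WT iDF replicate 2 or dKO iDF replicate 1 (−1.13 and −0.99).

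A further 312 genes called in CAFs (73 higher and 239 lower in dKO) failed the expression filter in iDFs, and 188 genes called in iDFs (85 higher and 103 lower) failed it in CAFs, so no difference could be tested for them. *Krt5* was among the lower CAF genes of this kind, with 3.04 to 14.3 CPM in dKO CAFs and 17.5 to 36.3 CPM in WT CAFs. Within 10 Mb of the targeted genes, 0 of 127 genes near *H2afy* and 1 of 90 near *H2afy2* were called in both sources, and that gene (*Vsir*, named after its values were seen) moved in opposite directions.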

How the data were processed

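Poly(A) RNA was sequenced as 75-base single reads from strand-specific libraries. Per the submitters' processing notes and the deposited tables, the authors quantified transcripts with Salmon 1.2.1 (GRCm38.p6); each table gives estimated counts, TPM and an effective length (another unit, bases) per transcript. The deposited estimated counts were summed per gene and rounded, using TPM only to average the deposited effective lengths for 1 alternative; 139791 of 140992 transcripts (99.15%) had a gene, and 0.311 to 0.432% of counts had none and were left out. Genes passed edgeR's filter (minimum count 10, total 15). edgeR 4.0.16 (R 4.3.3) quasi-likelihood fits with TMM were made for CAFs (genotype and sex), for iDFs (8 libraries, 4 of them at 30 min, sharing the spread) and for the difference (12 libraries), with Benjamini-Hochberg adjustment over all genes tested. In simulated data, the iDF fit recovered 100% of changes of log2 1 (14822 genes), the CAF fit 86% (15863 genes) and the difference 61% of those set in CAFs and 56% of those set in iDFs (13782 genes). Alternatives used DESeq2 1.42.0 and limma 3.58.1, other scaling, filters and thresholds, sex, iDF libraries, a replicate block and each library left out. The members, lists and naming rule (study-named genes, then the largest changes with genotypes apart, and at most 3 genes per list) were chosen with earlier results of these data known. Some items are not reported here.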

Additional observations from a re-analysis of the deposited data

Results flagged for a closer look

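In groups of 4 CAF libraries, 5 of 98 tests found a library far from the others, where chance gives about 1 in 20. These were 58.8 CPM for *H2afy* in WT female 4, 42.6 CPM for *Tshz2* in WT female 3, 9.72 CPM for *Slfn8* in dKO female 3, and 12.9 CPM for *Klf15* and 0.194 CPM for *Gm14305* in dKO male 1.

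The change in CAFs differed from the change in iDFs by the edgeR test of the difference for 575 genes above and 654 genes below 0. Among the named genes of opposite direction, the CAF change lay above the iDF change by 6.34 for *Apoe*, 3.78 for *Abca8a*, 3.68 for *Klf15*, 3.08 for *Scn2a*, 3.06 for *Cd59a*, 2.13 for *Slc27a6* and 1.96 for *Kitl* on the log2 scale. The difference was −5.0 for *Grem1*, −4.47 for *Gatm*, −4.42 for *Slc6a17*, −3.69 for *Sfrp2* and −3.37 for *Tfap2a*.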

How the results depend on the processing

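A gene was counted as passing from the same to the opposite direction, or back, only where an alternative called it in both sources. None of the 133 genes called in both did so under the 25 alternatives, but the numbers of genes called moved. With DESeq2, 346 genes were higher in dKO CAFs and 18 higher in both. With no fold threshold, 600 were higher in dKO CAFs, 2440 higher and 2289 lower in dKO iDFs, 993 differences lay above and 1123 below 0, and the genes called in both were 104 higher in both, 130 lower in both, 122 higher in CAFs and lower in iDFs, and 142 the reverse. Without sex in the CAF model, 130 were higher and 256 lower in dKO CAFs, 416 differences lay below 0, and the 4 counts were 5, 17, 13 and 17. With male CAFs alone, 75 were higher and 287 lower, the 4 counts were 3, 25, 9 and 24, and Spearman's rho was −0.0137. The CAF change of *Gm14288*, a gene lower in both sources in the main fits, reversed its sign to 0.10 (edgeR adjusted p = 0.958) with the length offset. The cause was not tested.

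With each library left out in turn, 120 to 279 genes were higher and 384 to 638 lower in dKO CAFs, 490 to 543 higher and 593 to 660 lower in dKO iDFs, and 345 to 634 differences lay above and 363 to 713 below 0. The genes called in both ranged from 3 to 21 (higher in both), 28 to 51 (lower in both), 7 to 33 (higher in CAFs, lower in iDFs) and 28 to 54 (the reverse). Pearson's r ran from −0.0117 to 0.0128 and Spearman's rho from −0.0148 to 0.0099. With the iDF replicate number as a block, 624 genes were higher and 813 lower in dKO iDFs, and 522 differences lay above and 584 below 0. Same-numbered iDF libraries deviated together only weakly (r of 0.018 to 0.132), so the numbers were not taken as pairs.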
